A study of Mus musculus with 10 samples.

Results

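Abca1, Ugcg, Gba2 and Nsmaf, 4 genes of cholesterol export and sphingolipid turnover, were followed in RNA sequencing of whole colon from mice with chemically induced colitis. They were chosen by name and stand for 4 of the 55416 rows of the deposited count tables. All mice had received 2% dextran sulfate sodium (DSS), which damages the colonic epithelium, in drinking water for 7 days. Libraries came from wild-type (WT) mice and from mice lacking Vista, an immune checkpoint protein encoded by Vsir, with 5 libraries of each genotype and no untreated group. A first deposited table held WT and knockout libraries 1 to 3. A second held WT and knockout libraries 4 and 5. The genotype was "VISTA knockdown" in the labels of the first table, "Vista-/-" in those of the second, and both are treated here as 1 knockout group. The design text speaks of 3 biological replicates per group. The labels do not say which animals gave libraries 4 and 5, and a p-value here reflects how libraries vary, which may be partly technical. Neither the making of the allele nor the age and sex of the mice was stated in the labels.

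Abca1 encodes a plasma membrane pump that loads cellular cholesterol and phospholipid onto apolipoprotein A-I, and its transcription is driven by the sterol-sensing liver X receptors. The other 3 genes act on sphingolipids. Ugcg encodes the enzyme that attaches glucose to ceramide, the committed step towards most glycosphingolipids, Gba2 encodes an enzyme that removes that glucose again outside the lysosome, and Nsmaf encodes an adaptor that links a tumor necrosis factor receptor to neutral sphingomyelinase, which releases ceramide. In the intestine, glycosphingolipids are abundant in the apical membrane of epithelial cells, and Abca1 also serves macrophages that unload cholesterol.

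Across most of the genome the deposited rows did not carry the counts that their gene names predict, so names are used for results only in 3 stretches. The 4 genes lie in the longest of these, the first 60 Mb of chromosome 4 (mm10). There, 10 of 10 ribosomal, respiratory, RNA-processing and similar genes had 500 counts or more over all libraries. Outside the 3 stretches, 22.7% of 475 such widely used genes reached 500 counts. The stretches were set after the counts were seen, so these shares describe them and are not a separate check. Olfactory and vomeronasal receptor genes reached it in 54 of 1405 cases (3.84%) outside and 0 of 13 on chromosome 4, too few to tell these shares apart. The row of Vsir itself lies outside them, on chromosome 10, with counts of 27, 49, 33, 97 and 40 for knockout 1 to 5 and of 42, 78, 82, 5 and 0 for WT 1 to 5. It therefore does not check the genotype labels. Library totals ran from 3691322 to 4071238 counts. WT libraries 4 and 5 stood apart from the other 8 along the main axis of variation (first principal component, log2 CPM), at 46.7 and 51.1 against −26.2 to 5.37. CPM is a gene's count scaled to a library total of 1000000 counts. The effects over all libraries of the 4 genes and of the genes that overlap them are therefore also given without these 2 libraries and the table covariate. The second table then holds knockout libraries only, so genotype and table cannot be told apart in these fits.

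In mm10, Nsmaf (ENSMUSG00000028245) spans chromosome 4 from 6396207 to 6454271 on the minus strand and Gba2 (ENSMUSG00000028467) from 43566928 to 43578873, also on the minus strand. Abca1 (ENSMUSG00000015243) spans 53030787 to 53159895 on the minus strand and Ugcg (ENSMUSG00000028381) 59189257 to 59222833 on the plus strand. RefSeq windows of 250 bases before the transcription start (GRCm38.p6) matched Abca1, Ugcg and Gba2. The RefSeq starts of Ugcg and Gba2 differ from the spans above. The Ugcg window lies wholly inside the span of Ugcg, and the Gba2 window, from 43578865, overlaps the span of Gba2 at its start. They are shown because Gba2 was the member that differed between genotypes, Ugcg codes for the opposing enzyme and Abca1 is the member with a textbook sterol control. Capitals mark matches, on either strand, to a spaced repeat, GGTTA followed by any 5 bases and GGTCA, to the E-box CACGTG, to the GC box GGGCGG and to the TATA box TATAAA. The repeat was written after the known sterol-response element of Abca1, so its match there is not a finding. No matches overlapped.
Abca1, chr4:53159896-53160145, minus strand: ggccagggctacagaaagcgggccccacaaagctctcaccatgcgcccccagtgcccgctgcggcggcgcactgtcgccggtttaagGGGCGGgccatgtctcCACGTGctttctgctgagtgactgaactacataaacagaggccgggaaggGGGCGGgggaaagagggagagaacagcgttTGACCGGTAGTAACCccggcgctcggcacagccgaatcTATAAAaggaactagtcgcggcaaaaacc
Ugcg, chr4:59189300-59189549, plus strand: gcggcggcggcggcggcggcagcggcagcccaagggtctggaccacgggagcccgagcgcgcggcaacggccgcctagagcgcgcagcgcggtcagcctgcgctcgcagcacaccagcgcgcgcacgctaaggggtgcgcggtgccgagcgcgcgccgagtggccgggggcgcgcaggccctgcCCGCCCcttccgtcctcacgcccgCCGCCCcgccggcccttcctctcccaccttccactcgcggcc
Gba2, chr4:43578865-43579114, minus strand: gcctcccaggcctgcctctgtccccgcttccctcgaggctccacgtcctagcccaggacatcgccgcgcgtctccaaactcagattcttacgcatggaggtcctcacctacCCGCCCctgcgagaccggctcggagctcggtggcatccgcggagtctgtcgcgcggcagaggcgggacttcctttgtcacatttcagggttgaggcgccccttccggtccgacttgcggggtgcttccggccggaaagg
The Abca1 window held all 4 kinds of match, with the spaced repeat at bases −67 to −53, the E-box at −147 to −142 and the TATA box at −29 to −24. Of 32851 RefSeq windows of this length, 0.0457% held the spaced repeat, 6.02% the E-box, 32.7% a GC box and 12.4% the TATA box. Ugcg and Gba2 held GC boxes and no match to the other 3 motifs in this window. The GC content was 80.4% for Ugcg, 66.8% for Gba2 and 61.6% for Abca1, against a median of 52.4% over all windows.

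Ugcg was the most abundant of the 4 transcripts per length. Its mean over the 10 libraries was 70.5 ± 8.39 CPM per kb of exon (SD), rank 60 of 335 protein-coding genes of the stretch. Gba2 followed with 14.8 ± 3.25 CPM per kb and rank 148, and Nsmaf with 13.8 ± 1.91 and rank 151. Abca1 had 9.05 ± 2.32 CPM per kb and rank 169. Gba2 and Nsmaf did not differ beyond their spread over libraries. The ranges of Nsmaf (11.2 to 16.8) and Abca1 (5.12 to 12.1) also overlapped. Each gene had at least 177 counts in every library.

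The main comparison asked whether these transcripts differ between Vista knockout and WT colons in DSS colitis. Gba2, the glucosylceramide-degrading enzyme gene, was lower in the knockout. Ugcg, Abca1 and Nsmaf did not pass the test. With edgeR's quasi-likelihood test, the table as a covariate and Benjamini-Hochberg adjustment over 9736 tested rows, 1 of the 4 genes passed an adjusted p of 0.05. In all, 5.63% of tested rows passed and 2.93% of tested rows did so as lower in the knockout, and inside the chromosome 4 stretch 22 of 260 rows (8.46%) passed. A count of 1 in 4 does not set the group apart from that background.

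Gba2 stood at 44.0, 57.5, 49.4, 63.0 and 61.1 CPM for knockout 1 to 5 and 68.2, 73.6, 68.2, 89.2 and 87.0 CPM for WT 1 to 5. All 5 knockout libraries lay below all 5 WT libraries. Of all tested rows, 7.22% had genotypes that did not overlap and 4.51% had them in this direction. The means were 55.0 ± 8.05 and 77.2 ± 10.2 CPM (SD, n = 5 each). The fitted fold was 1.37-fold lower, with a 95% interval of 1.19 to 1.59, or a log2 fold change of −0.46 ± 0.09 (SE), and edgeR's adjusted p was 0.0206. By size of change it ranked 49 among the 260 tested rows of the stretch.

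Within each table the Gba2 difference was of similar size. In the first table the knockout mean was 50.3 ± 6.79 CPM and the WT mean 70.0 ± 3.13 CPM (SD, n = 3 each), with a log2 fold change of −0.44 ± 0.13 (SE) and an adjusted p of 0.0704 in edgeR. In the second the means were 62.0 ± 1.29 and 88.1 ± 1.56 CPM (SD, n = 2 each), with −0.50 ± 0.15 and an adjusted p of 0.215. Gba2 missed the threshold in either table by itself. The 2 effects differed by −0.06 on the log2 scale, with edgeR's adjusted interaction p at 0.917. The mean of each genotype was higher in the second table than in the first.

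The Gba2 call did not hold in every alternative. It was lost without knockout 1, WT 2, WT 4 or WT 5, with edgeR adjusted p values of 0.0531, 0.0577, 0.0607 and 0.0517. The log2 fold change of Gba2 in these fits was −0.42, −0.45, −0.45 and −0.46. Of all rows, 3.1%, 2.4%, 2.27% and 2.64% passed in them. The call was also lost without the table covariate, with an adjusted p of 0.0512 in edgeR. With WT 4, WT 5 and the covariate all left out, the log2 fold change was −0.33 with an adjusted p of 0.185. In that fit the second table, where Gba2 ran higher in both genotypes, held only knockout libraries. The smaller value can therefore not be assigned to WT 4 and WT 5. The direction was the same in all 18 alternatives. Because the genotypes did not overlap in CPM, leaving out libraries could hardly have reversed it.

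**Figure D1:**
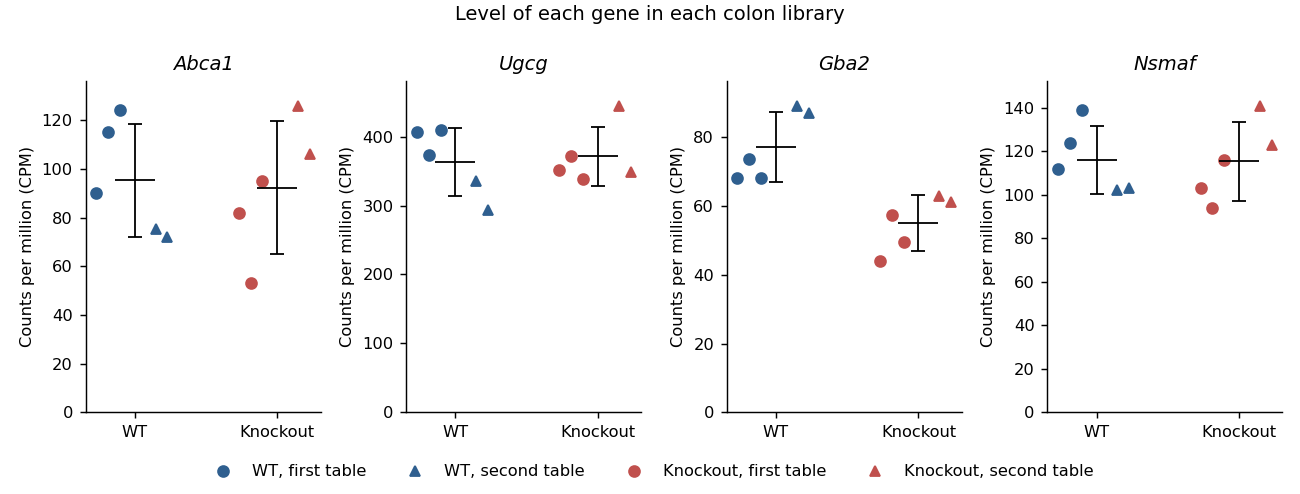
CPM of each gene (y axis, from 0) in WT (blue) and knockout (red) libraries, circles for the first and triangles for the second table, with the mean and SD over 5 libraries in black. Knockout libraries lay below WT libraries for Gba2 only, and for Abca1, Ugcg and Nsmaf the knockout triangles lay above the WT triangles.

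Gba2 shares its ends with neighbours on the opposite strand, which bears on what its row can hold. The start of Gba2 overlaps the start of Rgp1, a gene of retrograde trafficking to the Golgi, by 159 exonic bases, or 3.55% of the exonic length of Gba2. Its other end overlaps the end of Creb3, a transcription factor gene of the endoplasmic reticulum and Golgi, by 133 exonic bases (2.97%). The strand setting of the counting was not given in the sources used here, so reads in these overlaps cannot be assigned between the genes.

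Rgp1 stood at 284, 297, 273, 261 and 259 CPM for knockout 1 to 5 and 328, 345, 285, 400 and 402 CPM for WT 1 to 5. The genotypes overlapped in 1 library each, WT 3 and knockout 2. Its log2 fold change was −0.32 ± 0.11 (SE) with an adjusted p of 0.100 in edgeR, and −0.19 without WT 4 and WT 5. Creb3 averaged 215 ± 26.0 CPM in the knockout and 195 ± 7.83 CPM in WT (SD, n = 5 each). Its log2 fold change of 0.17 ± 0.10 (SE) had the opposite sign to that of Gba2 and an adjusted p of 0.305 in edgeR, and was 0.20 without WT 4 and WT 5. Both neighbours had several times the counts of Gba2, 12072 for Rgp1 and 7949 for Creb3 over all libraries against 2544. Their part in the Gba2 difference was not tested.

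**Figure D2:**
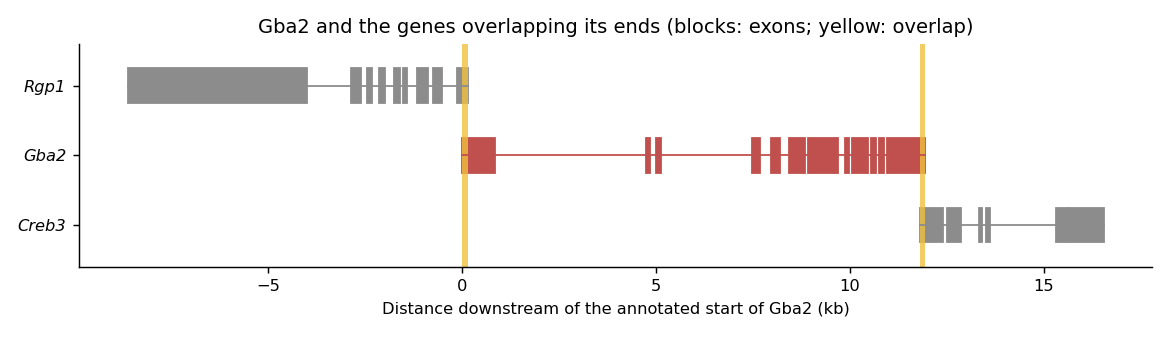
Exons (blocks) of Gba2 in red and of its neighbours in grey against the distance downstream of the annotated Gba2 start in kb, with the overlaps in yellow. The overlaps take 159 bases at the start, with Rgp1, and 133 bases at the end, with Creb3.

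Ugcg, the glucosylceramide synthase gene, did not pass the test over all libraries. Its levels were 352, 372, 339, 445 and 349 CPM for knockout 1 to 5 and 407, 373, 409, 335 and 293 CPM for WT 1 to 5. The genotypes overlapped, and the highest and the lowest values both came from the second table, in knockout 4 and WT 5. The means were 372 ± 42.6 and 364 ± 49.5 CPM (SD, n = 5 each), with a log2 fold change of 0.07 ± 0.11 (SE) and an adjusted p of 0.758 in edgeR. The 95% interval on the log2 scale, −0.18 to 0.32, excludes a 1.37-fold fall like that of Gba2. Without WT 4 and WT 5 the log2 fold change was −0.07, the opposite sign, with an adjusted p of 0.736 in edgeR.

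Because one enzyme makes and the other degrades glucosylceramide, the ratio of their counts was compared, which needs no scaling between libraries. The knockout libraries held 7.99, 6.47, 6.84, 7.05 and 5.71 Ugcg counts per Gba2 count and the WT libraries 5.96, 5.06, 5.99, 3.75 and 3.37, each in the order 1 to 5. Only knockout 5 lay below the highest WT libraries, WT 1 and WT 3. The mean ratio was 6.81 ± 0.835 in the knockout and 4.83 ± 1.22 in WT (SD, n = 5 each). On the log2 scale the difference was 0.53, a 1.44-fold higher ratio, with an exact permutation p of 0.0167 within tables (two-sided), the smallest that this design allows.

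The ratio shares its Gba2 counts with the comparison above and is not separate evidence. Permuted over all 10 libraries the exact p was 0.0238. The difference was 0.32 in the first table, where the exact p of 0.10 is the smallest possible, and 0.835 in the second, where 0.333 is. Without both second-table WT libraries it was 0.26, with an exact p of 0.0893. That comparison sets knockout libraries of both tables against first-table WT libraries, permuted without regard to table, so genotype and table are mixed in it. Leaving out knockout 1, 2 or 3 gave exact p values of 0.0667, 0.050 and 0.0667.

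**Figure D3:**
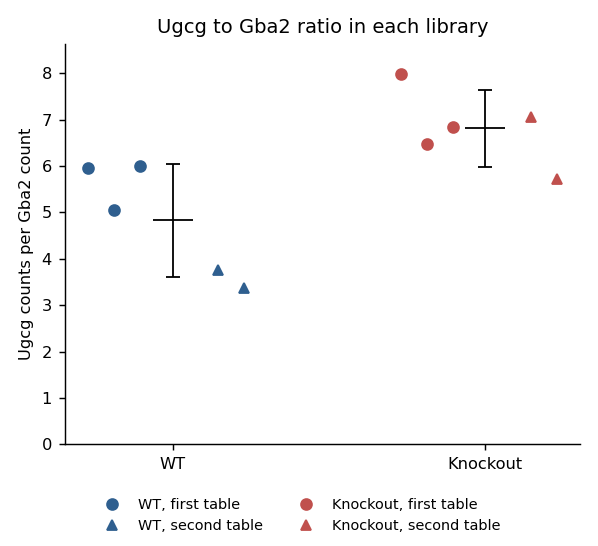
Ugcg counts per Gba2 count (y axis, from 0) in each library, circles for the first and triangles for the second table, with the mean and SD over 5 libraries in black. The second-table WT libraries had the lowest ratios, 3.75 and 3.37, and knockout 1 the highest, 7.99.

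Abca1, the cholesterol exporter gene, did not pass the test over all libraries and had opposite directions in the tables. Its levels were 81.7, 53.1, 94.9, 126 and 106 CPM for knockout 1 to 5 and 90.1, 115, 124, 75.2 and 72.1 CPM for WT 1 to 5. In the first table the knockout libraries were the lower ones, except that knockout 3 exceeded WT 1. In the second both knockout libraries lay above both WT libraries. The overall means were 92.3 ± 27.2 and 95.4 ± 23.5 CPM (SD, n = 5 each), with a log2 fold change of −0.03 ± 0.22 (SE) and an adjusted p of 0.948 in edgeR. Without WT 4 and WT 5 the log2 fold change of Abca1 was −0.24 with an adjusted p of 0.537. Its coefficient of variation, 29.5% in the knockout and 24.6% in WT, was the largest of the 4 genes in each genotype.

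In the first table Abca1 averaged 76.6 ± 21.4 CPM in the knockout and 110 ± 17.6 CPM in WT (SD, n = 3 each), a log2 fold change of −0.49 ± 0.18 (SE) with an adjusted p of 0.120 in edgeR. In the second it averaged 116 ± 14.3 and 73.6 ± 2.22 CPM (SD, n = 2 each), a log2 fold change of 0.66 ± 0.16 with an adjusted p of 0.146. The effects differed by 1.15 ± 0.28 on the log2 scale (95% interval 0.52 to 1.77). The adjusted p of this interaction was 0.0715 in edgeR, which missed the threshold of 0.05, and 0.00192 before adjustment. With DESeq2 the adjusted p was 0.0147, and without knockout 5 it was 0.0366 in edgeR. Over all rows 2.05% had an interaction in edgeR and 3.53% in DESeq2.

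Nsmaf, the adaptor gene, followed the same course at a smaller size. Its levels were 103, 94.1, 116, 141 and 123 CPM for knockout 1 to 5 and 112, 124, 139, 102 and 103 CPM for WT 1 to 5. The genotypes overlapped in the first table, whereas both second-table knockout libraries were the higher ones. The means were 115 ± 18.1 and 116 ± 15.7 CPM (SD, n = 5 each), with a log2 fold change of 0.02 ± 0.12 (SE) and an adjusted p of 0.952 in edgeR. Without WT 4 and WT 5 it was −0.10, the opposite sign, with an adjusted p of 0.672. The first table gave a log2 fold change of −0.22 ± 0.11 and the second 0.36 ± 0.15, with adjusted p values of 0.222 and 0.367 in edgeR. Their difference was 0.59 ± 0.17 with an adjusted interaction p of 0.126. Nsmaf shares 78 exonic bases, 0.932% of its exonic length, with Sdcbp on the other strand, whose log2 fold change was 0.17 with an adjusted p of 0.250 in edgeR, and 0.13 without WT 4 and WT 5.

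Ugcg had the same order of signs. The first table gave a log2 fold change of −0.12 ± 0.10 (SE) and the second 0.34 ± 0.18, with adjusted p values of 0.466 and 0.492 in edgeR. Their difference was 0.47 ± 0.19 with an adjusted interaction p of 0.280. So 3 of the 4 genes were lower in the knockout in the first table and higher in the second, as were 20.9% of 9563 rows tested in both. By edgeR 0 of the 4 passed in the first table, the second table or the interaction, where 6.06%, 0.856% and 2.05% of all rows passed. DESeq2 gave 0, 0 and 1 of the 4, and limma's voom 0 in each. At an unadjusted p of 0.05, Gba2 and Abca1 passed in each table, as did 26.1% of rows in the first and 14.5% in the second. Abca1, Nsmaf and Ugcg did so in the interaction, against 14.6% of rows. In the second table no gene of the 4 had overlapping genotypes, Gba2 lower in the knockout and the others higher, but genotypes did not overlap for 44.8% of all rows (22.7% with the knockout lower). In the first this held for Gba2 and Ugcg, both lower in the knockout, against 30.6% of rows (17.1% lower). For Ugcg there, knockout 2 (372 CPM) lay next to WT 2 (373 CPM).

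**Figure D4:**
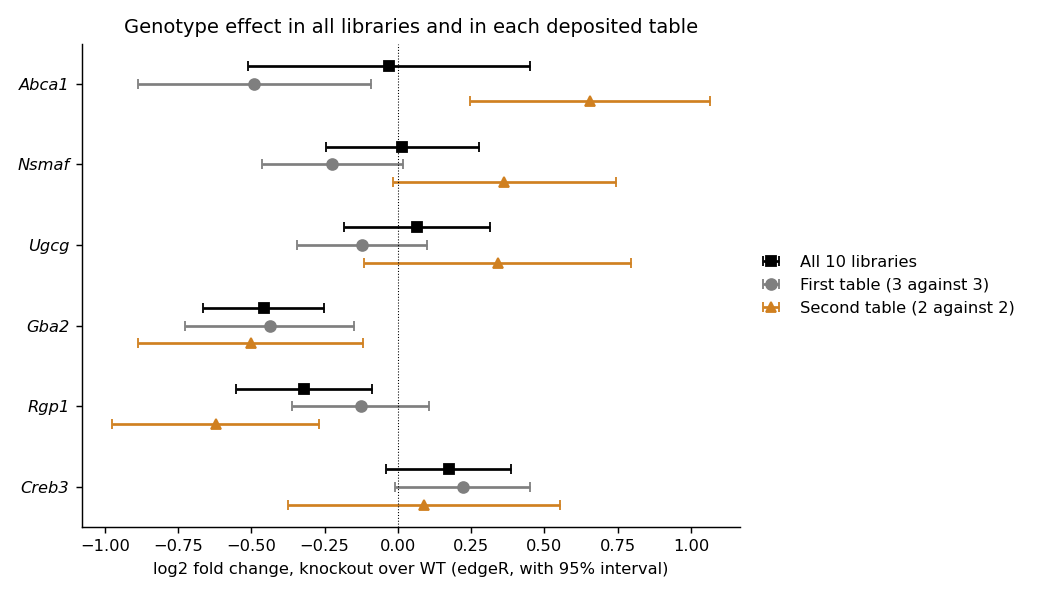
log2 fold change of knockout over WT with its 95% interval in edgeR, for the 4 genes and the 2 genes overlapping Gba2, over all 10 libraries (squares), the first table (circles) and the second (triangles). Gba2 lay left of 0 in all 3 fits, while Abca1 went from −0.49 in the first table to 0.66 in the second.

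The second-table WT libraries, which were low in Abca1, Nsmaf and Ugcg and high in Gba2, also differed in some of the cell type markers read. Of the 14 myeloid markers only Lyn, a kinase gene of myeloid and B cells, lies where names can be used. It stood at 186 and 161 CPM in WT 4 and 5, at 258 to 318 CPM in the other WT libraries and at 253 to 465 CPM in the knockout. The summed B cell markers Pax5, Cd72 and Bach2 (3 of 6) were at 30.1 and 25.2 CPM in WT 4 and 5 and at 118 to 291 CPM elsewhere. None of these 3 passed over all libraries. In the second table Pax5 and Cd72 passed as higher in the knockout (edgeR adjusted p 0.0315 and 0.0406), against 0.856% of rows. Bach2 passed as lower in the first table (edgeR adjusted p 0.0301), against 6.06% of rows. All 3 passed in edgeR's interaction, against 2.05% of rows. The 3 of 7 fibroblast and stroma markers summed to 636 to 1270 CPM in the knockout and 739 to 1369 CPM in WT, and 1 of them, Adamts12, passed the test as lower in the knockout (log2 fold change −1.14, edgeR adjusted p 0.0127). Both enteric neuron and endocrine markers read, of 3, passed, Tac1 as 2.82-fold higher (edgeR adjusted p 0.00826) and Penk as 2.03-fold lower (adjusted p 0.0308). They summed to 216 to 719 CPM in the knockout and 191 to 365 CPM in WT. The 7 of 14 epithelial markers summed to 8015 to 11071 CPM in the knockout and 9080 to 11933 CPM in WT, and 2 of the 7, Galnt12 and Cftr, passed the test as lower in the knockout by edgeR. Tox, 1 of 5 T cell markers, passed the test as lower in the knockout by edgeR, as Gba2 did. It stood at 48.1 to 63.0 CPM in the knockout and 62.8 to 112 CPM in WT. Unlike Lyn and the B cell markers, it was highest in WT 4 and 5, at 112 and 101 CPM. The 2 of 5 smooth muscle markers summed to 645 to 1860 CPM in the knockout and 989 to 1651 CPM in WT. Epithelial, stromal and smooth muscle sums of WT 4 and 5 lay within the range of the other libraries. Their neuron and endocrine sums were 273 and 191 CPM, against 216 to 719 CPM in the others. No endothelial marker lies in the stretches. Over all libraries 5.63% of tested rows passed, and 2.93% did so as lower in the knockout. None of the markers read was at 0. Their part in the results was not tested, and in whole tissue fewer cells of a type and less RNA per cell cannot be told apart.

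Abca1 and Nsmaf tracked each other closely over the libraries although they lie far apart on the chromosome. Among 225 other protein-coding genes tested in the stretch, Nsmaf had the pattern most like Abca1 and Abca1 the one most like Nsmaf. Pearson's r of log2(CPM + 1) over 10 libraries was 0.96, and 0.974 without knockout 2, the library lowest in both. The median over all other genes was 0.191 for Abca1 and 0.185 for Nsmaf. Next came Invs, a ciliary gene, at 0.88 with Abca1 and 0.82 with Nsmaf, then Dpy19l4 at 0.773 with Abca1 and Susd1 at 0.783 with Nsmaf.

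Gba2 did not follow the others, with r of −0.014 with Abca1, 0.0038 with Nsmaf and −0.21 with Ugcg. The genes most like it were Car9, a hypoxia-induced carbonic anhydrase gene (0.883), Tmem246 (0.838) and Tox, a T cell transcription factor gene (0.824). For Ugcg they were Txn1, the cytosolic thioredoxin gene (0.872), Fam219a (0.869) and Dcaf12 (0.85), while r was 0.525 with Abca1 and 0.623 with Nsmaf. These values describe libraries that share genotype, table and depth, and carry no test.

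**Figure D5:**
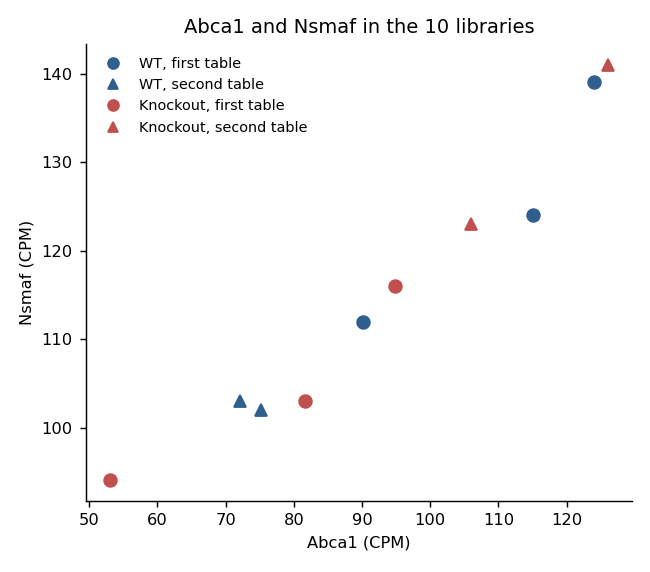
Nsmaf against Abca1, both in CPM, with 1 point per library (WT blue, knockout red, circles for the first and triangles for the second table). The points rise together from knockout 2 (53.1 and 94.1 CPM) to knockout 4 (126 and 141 CPM), and the genotypes are mixed along the line.

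Other genes of both pathways could be read only where they lie in the 3 stretches, which held 14 of 135 listed symbols. Of these, 12 were tested, the 4 genes above included, and 0 were higher and 2 lower in the knockout by edgeR. Of all tested rows, 5.63% passed and 2.93% passed as lower in the knockout. Both called genes lie in the chromosome 4 stretch, where 8.46% of rows passed. So few genes do not set the lists apart from that background. The median log2 fold change was −0.16 over the 12, against 0.02 over all tested rows. Besides Gba2, the other that fell was Acnat1, which codes for an enzyme that conjugates fatty acids to taurine. It stood at 34.1 to 40.4 CPM in the knockout libraries and 57.7 to 72.5 CPM in WT. Its log2 fold change was −0.76 ± 0.10 (SE) with an adjusted p of 0.00346 in edgeR. Its neighbour Acnat2 had 3 counts in all, against 1919 for Acnat1, so hardly any reads were assigned to Acnat2. Whether reads matching both genes were left out was not examined.

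The remaining genes of cholesterol and bile acid metabolism did not pass the test over all libraries. Baat, which codes for the bile acid conjugating enzyme, had a log2 fold change of −0.53 at 6.10 and 9.08 CPM in knockout and WT, with an adjusted p of 0.206 in edgeR. Hsdl2, a hydroxysteroid dehydrogenase-like gene, had −0.32, March6, whose ubiquitin ligase marks squalene monooxygenase for degradation, −0.21, and the racemase gene Amacr −0.18. The caveolar genes Cav1 and Cav2 had 0.05 and −0.04. Cav2 passed as lower in the first table (−0.57, edgeR adjusted p 0.0441), had 0.77 in the second (adjusted p 0.114) and passed in the interaction (1.34, adjusted p 0.0113). Cav1 had −0.51 in the first and 0.89 in the second, where edgeR's interaction p was 0.148 after adjustment. On the sphingolipid side, Laptm4b, a lysosomal membrane protein gene, had −0.13 with an adjusted p of 0.243 in edgeR. Cyp7a1, the rate-limiting enzyme gene of bile acid synthesis in liver, had 0 counts in every library, which allows at most 0.0776 CPM over the 10 libraries together, for counting error only.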

How the data were processed

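The authors deposited 2 tables of raw read counts, 1 row for each of 55416 Ensembl genes. Per the submitters' processing notes, reads were aligned with HISAT2 (2.2.1 for the first table) and counted with featureCounts 2.0.1. Those notes give mm10 for the second table but the human build GRCh38 for the first, and the annotation was not given in the sources used here. GENCODE M21 named 52083 rows. The 3 stretches were chromosome 4 to 60 Mb, chromosome 6 to 30 Mb and chromosome 15 from 10 to 38 Mb, set after the counts were seen.

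CPM was computed from column totals. Tests used edgeR 4.0.16 (R 4.3.3) with TMM scaling, filterByExpr and all rows, and the code was tested on simulated data. Alternatives were DESeq2 1.42.0, limma 3.58.1 (voom), RLE scaling, scaling from the chromosome 4 stretch, no filter, no covariate and leaving out libraries. For the 4 genes over all libraries, an exact permutation of log2 CPM within tables was a further one, without adjustment. No 2 libraries agreed within counting noise (mean chi-square per row at least 4.06). Named are the 4 genes, those overlapping them, list and marker genes in the stretches, and the 3 most similar genes of each. The genes and lists were chosen with earlier results of these data known.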

Additional observations from a re-analysis of the deposited data

How the results depend on the processing

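Gba2 stayed lower in the knockout in 18 of 18 alternatives and kept its call in 12. All alternatives reuse counts in which the genotypes did not overlap for Gba2, so the shared direction is not separate evidence. The log2 fold change of Gba2 was −0.461 without the table covariate and −0.328 with WT 4, WT 5 and the covariate left out. It ran from −0.544 to −0.423 as single libraries were left out. With these 2 settings the count of called members fell from 1 to 0. The share of all rows called fell as well, from 5.63% to 4.39% and 0.771%. Leaving out 1 library gave 0 to 1 called members, with 2.27% to 10% of all rows called. Ugcg, Abca1 and Nsmaf had no stable sign. Without WT 4, WT 5 and the covariate Abca1 was −0.239, Ugcg −0.0747 and Nsmaf −0.0997, and Nsmaf had −0.0124 as a plain difference of log2 CPM, with an exact permutation p of 0.95. Leaving out 1 library moved Abca1 from −0.17 to 0.133, Ugcg from −0.0407 to 0.126 and Nsmaf from −0.0766 to 0.0773. Abca1 was the 1 member that passed in the first table with no filter on low counts (edgeR adjusted p 0.0203), where 5.12% of rows passed. It was also the 1 that passed in the interaction with DESeq2, with no filter and without knockout 5. In those fits 3.53%, 2.54% and 4.89% of rows passed. Leaving out 1 library gave 0 to 1 members in the interaction. None of the 4 passed in the second table with DESeq2, voom, RLE scaling, scaling from the chromosome 4 stretch or no filter. Of all rows, 4.42%, 0.282%, 0.876%, 0.957% and 0.0085% passed there, in that order, so few could. Leaving out a library there leaves 1 in a genotype, which is assumed to vary like the others, so no call is read from it. The ratio of Ugcg to Gba2 was 0.323 in the first table alone, 0.835 in the second alone and 0.26 without both second-table WT libraries on the log2 scale, and 0.408 to 0.616 as single libraries were left out. Over both pathway lists 1 gene was called without the second-table WT libraries or without the covariate, and 1 to 2 as single libraries were left out. Without the second-table WT libraries, genotype and table cannot be told apart. For all of these results the cause was not tested. The omission of the second-table WT libraries for single genes followed from their place on the first principal component. For the ratio and the counts it was added after the data were seen, as were omissions in the second table. No paired analysis was possible because no label pairs a knockout library with a WT library by number.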
